A study of Rattus norvegicus with 6 samples.

Results

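T and NK cells of the crushed rat spinal cord were examined in 2 single-cell libraries, from cords injected with MPSS and from cords injected with PBS. A cell was taken when it held at least 500 UMIs (counted molecules) and at most 20% mitochondrial UMIs. It also had to hold at least 3 UMIs of Cd3e, Cd3d, Cd3g, Nkg7 and Prf1 together, C1qa plus C1qb below 10 per 10000 UMIs, and at most 2 UMIs of Cd79b. These conditions found 115 cells among the 3500 kept cells of the injected cords, 64 of 2106 in MPSS and 51 of 1394 in PBS. The series holds 30699 cells in 6 libraries.

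The series follows the immune reaction of the injured cord, and its injected cords ask how MPSS acts on it. MPSS is written only as this abbreviation in the labels. In work on spinal cord injury it usually stands for methylprednisolone sodium succinate, a glucocorticoid. Both groups were SD rats 6 to 8 weeks old with a crush injury at thoracic level 10. Both were injected in the cord 3 days after injury, at 5 sites with 1 µL per site and at depths of 0.6 and 1.2 mm, with MPSS at 10 mg/ml in PBS or with PBS alone. Both were collected 2 weeks after injury, with 5 animals named for each condition. The 5-mm section around the lesion was digested with collagenase and trypsin, strained at 40 µm and freed of red cells by lysis, so the counts describe the cells that survived this treatment. Each condition is 1 library, so animals cannot be told apart and no test between MPSS and PBS was possible. All intervals are at 95% and cover counting error only.

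T cells recognise antigen through a receptor that signals through the CD3 chains. CD8 T cells kill target cells with perforin and granzymes, while CD4 T cells act mainly through cytokines and include regulatory T cells, which express Foxp3 and dampen immune responses. NK cells kill without an antigen receptor and express Nkg7, Prf1 and receptors of the Klr family. After spinal cord injury, both kinds of lymphocyte enter the lesion from the blood.

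The 64 MPSS cells held 277976 UMIs with a median of 3617 per cell, and the 51 PBS cells held 215523 with a median of 3746. All kept cells had medians of 10341 and 10151.5 UMIs. The libraries had 5 cell barcodes in common, none of them among the T and NK cells. Some cells carried markers of another type. In MPSS, 8 cells held at least 5 UMIs over the markers of 1 other cell type, and in PBS 10 did. A PBS cell held 1937 UMIs of neutrophil markers, which was 99.9% of such UMIs in its group, and an MPSS cell held 256. An MPSS CD8 cell of 28670 UMIs held 764 UMIs of oligodendrocyte markers and 10.3% of all UMIs of the MPSS T and NK cells. A doublet caller (scrublet) marked only 3 and 4 of the kept cells, 1 of them a T or NK cell, so doublets were kept. Some of the comparisons are also given without the cells that carry markers of another type. The 5 MPSS cells that passed by Cd3g alone are described separately.

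T and NK cells made up 3.04% of kept cells in MPSS (2.35 to 3.86) and 3.66% in PBS (2.74 to 4.78). The intervals overlap, and the libraries could not be told apart by this share. Left out at the boundary were 3 MPSS cells with C1qa plus C1qb of 10.4 to 95.8 per 10000 UMIs, against a median of 147 in the phagocytes of that library. Cells with exactly 3 UMIs of the chosen genes numbered 3 and 1, and cells with 2 UMIs, just outside, numbered 0 in MPSS and 3 in PBS. The median over the members was 17 UMIs of these genes in MPSS and 14 in PBS, so few cells sat near the boundary. The genes used for the choice are given as a description. Cd3e was at 860 CPM (UMIs of the summed cells scaled to a total of 1e+06) in MPSS and 923 in PBS, Cd3d at 939 and 821, and Cd3g at 1061 and 858. Nkg7, a granule protein of cytotoxic lymphocytes, was at 1331 and 1011 CPM. Markers of T and NK cells summed to 5698 and 5549 CPM in the members and to 6.82 and 8.75 CPM in all other kept cells. Endothelial, pericyte and mast cell markers were at 0 in the members of both libraries. Other types were not absent. Oligodendrocyte markers had UMIs in 45 MPSS and 32 PBS members, and microglia and macrophage markers in 38 and 24. Neutrophil markers were at 928 and 8997 CPM in the members, above 531 and 1487 CPM in all other kept cells. In each library 1 cell held most of these neutrophil UMIs, 99.2% in MPSS and 99.9% in PBS.

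Cells with a Cd3 UMI were split by Cd4 and Cd8a. CD8 cells numbered 25 in MPSS and 22 in PBS, or 39.1% (27.1 to 52.1) and 43.1% (29.3 to 57.8) of the members. Cells with Cd3 but neither Cd4 nor Cd8a numbered 21 and 19, or 32.8% and 37.3%. CD4 cells numbered 7 and 3, and no cell held both. Cells without Cd3 but with Klrd1, taken as NK cells, numbered 9 and 5, or 14.1% (6.64 to 25.0) and 9.80% (3.26 to 21.4). A further 2 cells in each library held neither Cd3 nor Klrd1. In PBS they were the cell with 1937 UMIs of neutrophil markers and a cell with 39 UMIs of oligodendrocyte markers. Both count among the 51 members. In MPSS the 2 cells held 37 and 18 UMIs of Ccl5. The order of the subsets was the same in the libraries, and each interval of MPSS overlapped that of PBS. Only the CD8 subset held at least 20 cells in both libraries.

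**Figure D1:**
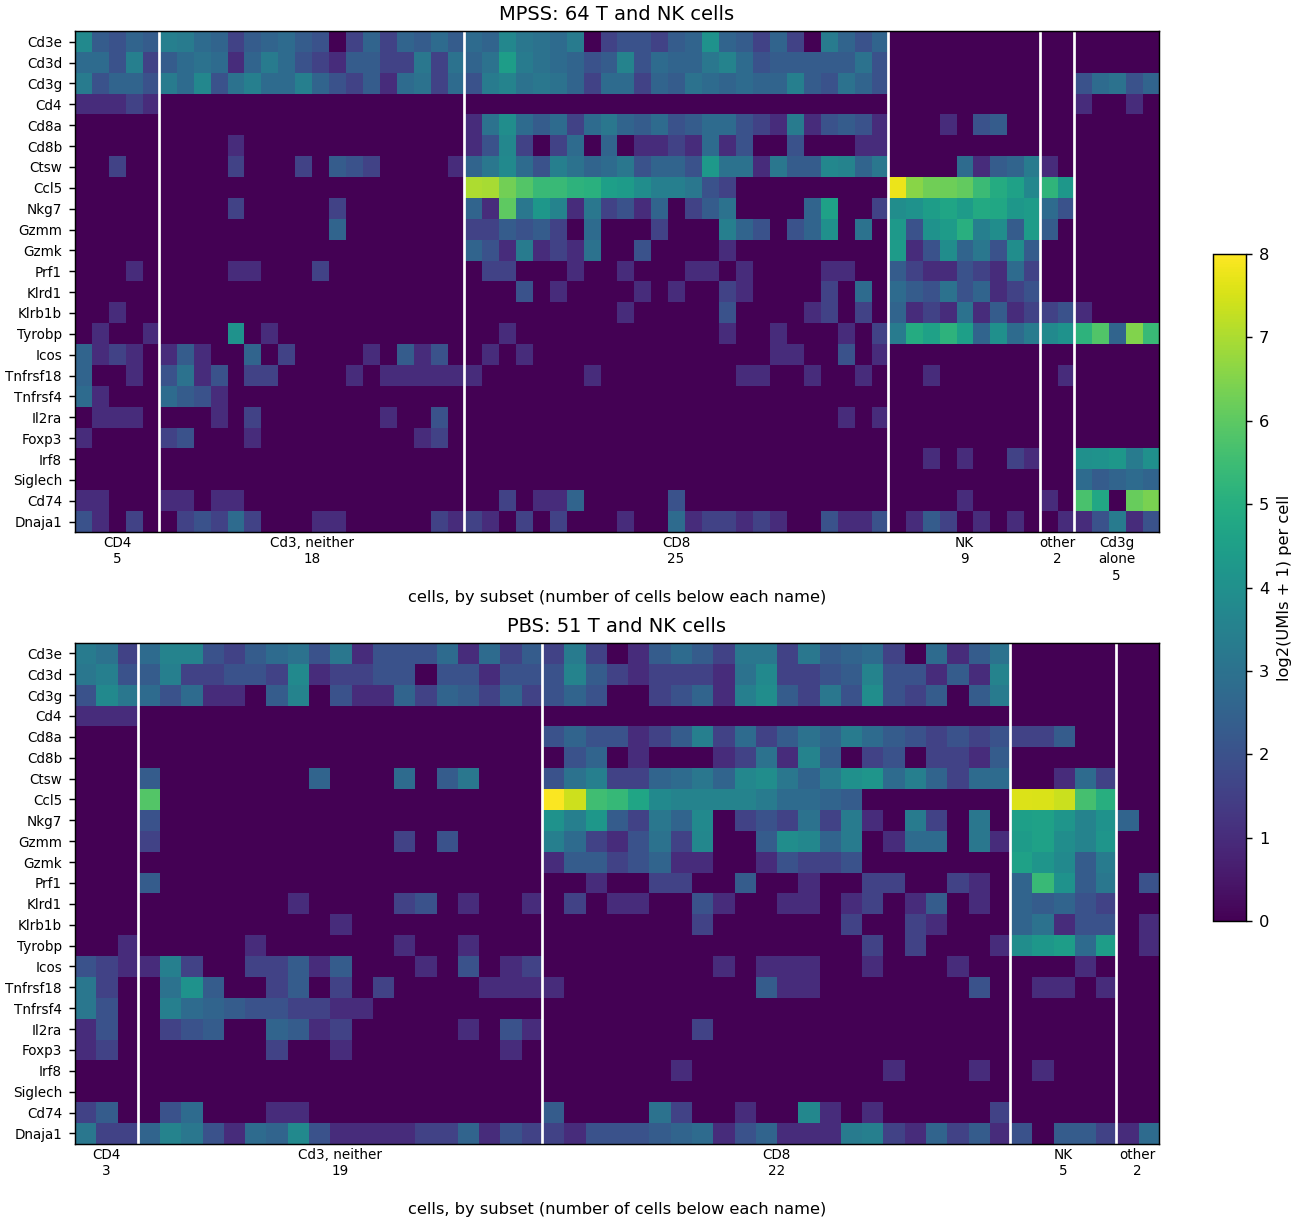
Each column is 1 T or NK cell of the MPSS library (top) or the PBS library (bottom), each row a gene, and the colour gives log2(UMIs + 1) in that cell. Cells are grouped by subset with the number of cells under each name. Ccl5 fills most CD8 cells and all 9 and 5 NK cells, Tnfrsf4 lies outside the CD8 cells, and the 5 cells with Cd3g alone at the right of the MPSS panel carry Irf8 and Siglech.

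**Figure D2:**
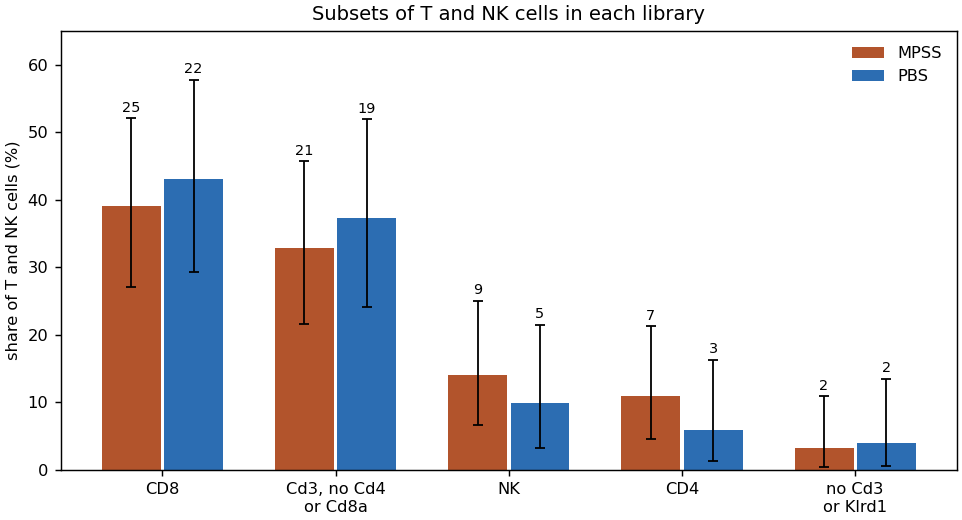
Bars give each subset's share of the T and NK cells (percent) in MPSS and PBS, with exact binomial 95% intervals for counting error and the number of cells above. The 25 and 22 CD8 cells lead in both libraries, and the intervals overlap in every subset.

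Cd4 was sparse, with 8 UMIs in the 7 MPSS CD4 cells and 3 UMIs in the 3 PBS CD4 cells, so many cells called negative may hold Cd4 below detection. Neither gene was private to lymphocytes in these libraries. A Cd8a UMI occurred in 59.8% and 59.4% of phagocytes and in 2.60% and 1.36% of cells gated as oligodendrocytes, which should lack it. After each cell was thinned to 1000 UMIs, Cd8a was found in 28.1% and 32.7% of T and NK cells, 23.2% and 18.2% of phagocytes and 0.204% and 0% of oligodendrocyte-gated cells. After the same thinning, Cd8b was found in 17.2% and 14.3% of T and NK cells and in 9.22% and 8.01% of phagocytes. It was found in no oligodendrocyte-gated cell, so Cd8b was not private to lymphocytes either. CD8 alpha is known from rat macrophages and rat NK cells as well as from T cells.

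The CD8 cells carried cytotoxic genes in both libraries. Ctsw, a protease of cytotoxic lymphocytes, had UMIs in 25 of 25 MPSS and 22 of 22 PBS cells. Ccl5, a chemokine stored by effector lymphocytes, had UMIs in 16 and 15 of them, and Nkg7 in 18 and 18. Cd8b, the second chain of the CD8 coreceptor of T cells but also detected in phagocytes here, was found in 17 and 15. Gzmm, a granzyme, was found in 15 and 18, and Gzmk, a granzyme of memory CD8 cells, in 10 and 13. Gzmb, the granzyme most used as a marker of killing, had no UMI in any T or NK cell of either library, which allows levels of up to 10.8 and 13.9 CPM (3 counts). Tnfrsf4 and Foxp3 had no UMI in any CD8 cell. A count of 0 in 25 and 22 cells allows shares of up to 12.0% and 13.6% of cells with a UMI, which does not limit the share of cells expressing these sparse genes.

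Costimulatory receptors were found in the Cd3 cells without Cd4 or Cd8a. Without the cells with Cd3g alone, they numbered 18 in MPSS and 19 in PBS. Icos, a costimulatory receptor of activated T cells, had UMIs in 9 and 12 of them, and in 6 of 25 and 6 of 22 CD8 cells. Tnfrsf18 (GITR), a receptor high on regulatory T cells, was found in 12 and 10, and in 6 and 5 of the CD8 cells. Tnfrsf4 (OX40), a costimulatory receptor of the same family, and Il2ra, the high-affinity IL-2 receptor chain, were each found in 4 of 18 MPSS cells and 10 of 19 PBS cells. Ccl5 had UMIs in 0 and 1 of these cells, Nkg7 in 2 and 1, and Ctsw in 6 and 5.

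Among all Cd3 cells other than those with Cd3g alone, 48 in MPSS and 44 in PBS, Foxp3 had UMIs in 6 and 5. All of these Foxp3 cells also held Tnfrsf18, and none held Ccl5. Of them, 3 of 6 and 4 of 5 held Tnfrsf4, and 2 of 6 and 5 of 5 held Il2ra. No Cd3 cell of either library held both Ccl5 and Tnfrsf4, although 16 and 16 held Ccl5 and 6 and 12 held Tnfrsf4. Il17a had 1 UMI in MPSS and 4 in PBS, Ifng 2 and 3, and Il10 none, so the cytokine types of helper T cells were not detectable at this depth.

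All 9 and 5 NK cells held Nkg7, Prf1, Gzmk, Gzmm, Ccl5, Klrd1, Klrb1b and Tyrobp. Nkg7, Prf1 and Klrd1 had been used to find them. Tyrobp, the signalling adaptor of NK receptors, had 5 to 35 UMIs per cell in MPSS and 6 to 21 in PBS. Cd8a was found in 3 of 9 and 3 of 5 of them and Cd8b in none. Prf1, which forms the pores through which granzymes enter target cells, took part in the choice of the cells and is given as a description. It had 1 to 6 UMIs per NK cell in MPSS with a median of 2, and 4 to 42 in PBS with a median of 8, so the ranges overlap between 4 and 6. Gzma, a granzyme, had 1 UMI over the 9 MPSS cells and 65 over the 5 PBS cells. A single PBS cell held 42 of the 75 Prf1 UMIs and 48 of the 65 Gzma UMIs of the PBS NK cells.

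In MPSS, 5 cells passed by Cd3g alone, with 3 to 7 UMIs of it and none of Cd3e or Cd3d. No PBS cell did, and 0 of 51 allows a share of up to 5.88%. These cells were large, with 4587 to 13952 UMIs, and held 14.8% of the UMIs of the MPSS members. All 5 held Irf8, with 9 to 18 UMIs each, Siglech with 4 to 6, Tcf4 with 2 to 4, Pld4 with 1 to 8 and Tyrobp with 5 to 88. Cd74, the invariant chain of MHC class II, had 229 UMIs in 4 of the 5 cells and 20 in the other 59 MPSS members. Siglech and Pld4 had no UMI in those 59 cells, and Irf8 had 5. Irf8, Siglech, Tcf4 and Pld4 are genes known from plasmacytoid dendritic cells. Of the defining dendritic cell markers listed here (Flt3, Clec9a, Xcr1 and Cd209), Xcr1 was at 0 in both libraries, the other 3 genes were detected in the MPSS members, and all 4 genes were at 0 in the PBS members. The cells are called by Cd3g alone, and 2 of them counted as CD4 and 3 as cells without Cd4 or Cd8a. Without them, 5 CD4 cells remained in MPSS against 3 in PBS.

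Levels were then compared between MPSS and PBS over the summed T and NK cells. In bulk sums of this kind, fewer cells of a subset and less RNA per cell cannot be told apart. Of 1876 genes with at least 30 UMIs over both sums, 143 (7.62%) were at least 2-fold higher in MPSS and 56 (2.99%) at least 2-fold lower. The counting interval also lay past 1 for 129 (6.88%) and 53 (2.83%). The median log2 ratio of MPSS over PBS was 0.05. The excess of higher genes came with few cells. Without the cells with Cd3g alone, 98 of 1722 genes (5.69%) were higher and 51 (2.96%) lower. Without those and the members with at least 5 UMIs of another type, 35 of 1263 (2.77%) were higher and 32 (2.53%) lower, and of these 14 and 21 were among the 143 and 56.

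**Figure D3:**
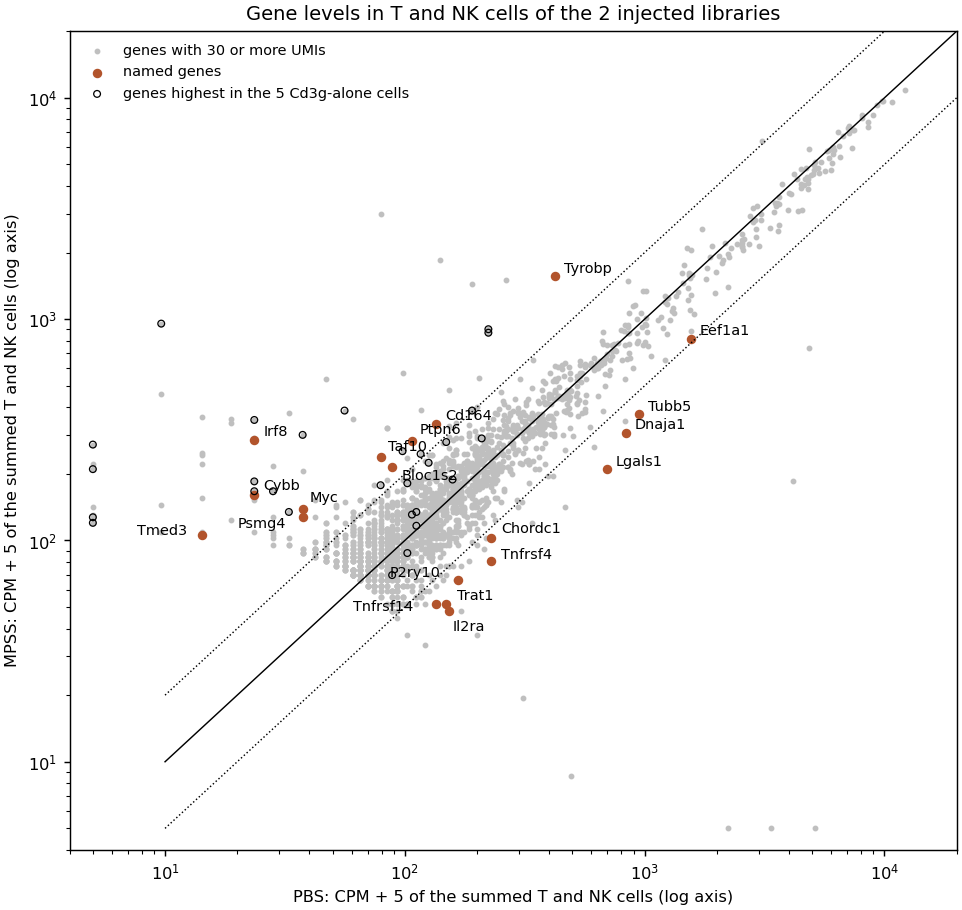
Each point is a gene with at least 30 UMIs, placed by its level in PBS (horizontal) and MPSS (vertical) as CPM + 5 of the summed T and NK cells on log axes, with the diagonal and dotted lines at 2-fold. Named genes are filled and labelled, and open circles are genes highest in the 5 cells with Cd3g alone, many of which lie above the upper line.

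Among the named genes lower in MPSS, Dnaja1 had the clearest per-cell difference. Dnaja1, a co-chaperone that passes unfolded proteins to Hsp70, was at 302 CPM in MPSS and 831 in PBS, 2.75-fold lower (2.11 to 3.61). It had UMIs in 39 of 64 MPSS cells and 50 of 51 PBS cells. After thinning to 1000 UMIs, which left out 2 PBS cells, it was found in 18 of 64 (28.1%, 17.6 to 40.8) and 31 of 49 (63.3%, 48.3 to 76.6). The lower share in MPSS held in each of the large subsets. In CD8 cells, 16 of 25 and 22 of 22 held Dnaja1, and in Cd3 cells without Cd4 or Cd8a (Cd3g-alone cells left out), 9 of 18 and 19 of 19 did. In all other kept cells the level was 402 and 422 CPM, a log2 ratio of -0.07, so the difference was not seen in the rest of the libraries. Without the cells with Cd3g alone and those with markers of another type, the log2 ratio was -1.72. Chordc1, an Hsp90 co-chaperone, was at 97.1 and 223 CPM, 2.29-fold lower (1.40 to 3.82). It was at 77.5 and 78.4 CPM in other kept cells.

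Receptors and an adaptor of T cells were among the other named genes lower in MPSS. Il2ra was at 43.2 CPM in MPSS and 148 in PBS, 3.44-fold lower (1.72 to 7.33), with UMIs in 9 of 64 and 13 of 51 cells. Tnfrsf4 was at 75.5 and 223 CPM, 2.95-fold lower (1.73 to 5.18), with UMIs in 6 and 12 cells. Trat1, an adaptor that stabilises the T cell receptor complex, was at 46.8 and 144 CPM, 3.08-fold lower (1.56 to 6.40), with UMIs in 12 and 20 cells. In the other kept cells Il2ra was at 0.343 and 0.830 CPM, Tnfrsf4 at 0.129 and 0.319, and Trat1 at 0. After thinning to 1000 UMIs, Tnfrsf4 was found in 4.69% and 16.3% of members and Trat1 in 7.81% and 16.3%, with intervals that overlap. P2ry10, a lymphocyte receptor for lysophosphatidylserine, was at 61.2 and 162 CPM with UMIs in 12 and 25 cells, 2.66-fold lower (1.45 to 5.05). Tnfrsf14 (HVEM), a receptor that can stimulate or restrain T cells, was at 46.8 and 130 CPM, 2.78-fold lower (1.39 to 5.84). Without the cells with Cd3g alone and the members with at least 5 UMIs of another type, the log2 ratios were -1.10 for Il2ra, -1.45 for Tnfrsf4, -1.58 for Trat1, -1.21 for P2ry10 and -1.38 for Tnfrsf14. All 5 genes stayed at least 2-fold lower.

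Lgals1, Tubb5 and Eef1a1 were also lower, with limits. Lgals1 (galectin-1), a secreted lectin, was at 205 and 691 CPM, 3.37-fold lower (2.47 to 4.66), but its log2 ratio moved from -1.75 to -0.48 without the cells with Cd3g alone and the members with at least 5 UMIs of another type. Tubb5, a beta-tubulin, was at 367 and 947 CPM, and its log2 ratio moved from -1.37 to -0.11 in the same way. A single PBS cell held 28.4% of the Tubb5 UMIs of the PBS members. The PBS members left out there include Cd3 cells of 9832 and 15312 UMIs with UMIs of the cell cycle gene Mki67. Eef1a1, a translation elongation factor, was at 809 and 1550 CPM. It was also lower in all other kept cells, at 507 and 819 CPM, so its difference was not particular to lymphocytes.

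Of the named genes higher in MPSS, Irf8, Cybb and Tyrobp came mainly with the cells with Cd3g alone. Irf8, a transcription factor of myeloid and dendritic cells, was at 281 CPM in MPSS and 18.6 in PBS, and without those cells its log2 ratio was 0.19 in place of 3.92. Cybb, the catalytic subunit of the phagocyte oxidase, was at 155 and 18.6 CPM, with a log2 ratio of 0.19 in place of 3.06. Tyrobp was at 1558 and 418 CPM, with 1.06 in place of 1.90. Tmed3, a cargo receptor of the early secretory pathway, was at 101 and 9.28 CPM and kept a log2 ratio of 2.03 without those cells, on 9 and 2 UMIs.

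Myc, Psmg4 and Taf10 differed with and without these cells. Myc, a transcription factor of cell growth, was at 133 CPM in MPSS and 32.5 in PBS, 4.10-fold higher (1.80 to 10.9). It had UMIs in 18 of 64 and 4 of 51 cells, among them 8 of 25 and 2 of 22 CD8 cells. In other kept cells Myc was at 35.0 and 39.2 CPM. After thinning to 1000 UMIs it was found in 15.6% (7.76 to 26.9) of MPSS and 2.04% (0.0517 to 10.9) of PBS members, and in 2.16% and 3.24% of phagocytes. Psmg4, an assembly chaperone of the proteasome, was at 122 and 32.5 CPM, 3.77-fold higher (1.64 to 10.1), with UMIs in 24 and 7 cells. Taf10, a subunit of the general transcription factor TFIID, was at 234 and 74.2 CPM, 3.15-fold higher (1.80 to 5.83), but it was also higher in all other kept cells, at 161 and 75.8 CPM. Ptpn6 (SHP-1), a phosphatase that damps receptor signals, was at 277 and 102 CPM, Cd164, a sialomucin, at 331 and 130, and Bloc1s2, a subunit of a complex for lysosome-related organelles, at 209 and 83.5. Without the cells with Cd3g alone the log2 ratios of these 3 genes were 0.83, 0.94 and 0.69, under 2-fold.

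**Figure D4:**
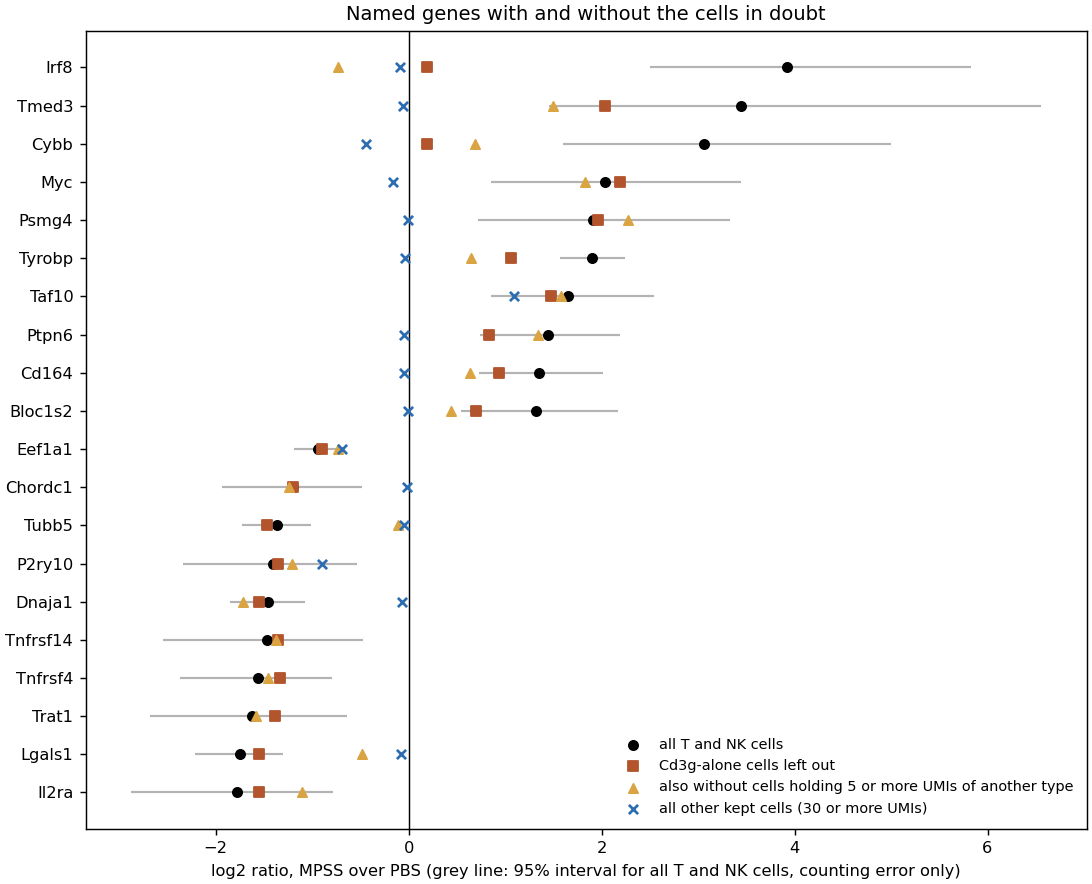
Points give the log2 ratio of MPSS over PBS for each named gene in all T and NK cells (with its 95% interval for counting error as a grey line), without the 5 cells with Cd3g alone, also without members holding 5 or more UMIs of another type, and in all other kept cells. Irf8 moves from 3.92 to 0.19 and then to -0.73 as cells are left out, Dnaja1 lies between -1.72 and -1.46 in the 3 member sets and at -0.07 in the other kept cells, and Taf10 and Eef1a1 lie to the same side in the other kept cells.

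Gene lists were described by the number of measured members at least 2-fold apart and by their median log2 ratio, beside 7.62% higher, 2.99% lower and a median of 0.05 over all genes. Regulatory T cell genes had the lowest median, -1.10, with 4 of 7 measured members at least 2-fold lower and none higher. The lower members were Il2ra, Tnfrsf4, Tnfrsf9 (4-1BB), at 86.3 and 209 CPM, and Tnfrsf18, at 137 and 292 CPM. These are receptors also induced on other activated T cells, and Ctla4, an inhibitory receptor of regulatory cells, was at 93.5 and 92.8 CPM. Foxp3 itself had 10 and 7 UMIs, too few to enter the list. Among Cd3 cells other than those with Cd3g alone, Tnfrsf9 had UMIs in 5 of 48 MPSS and 6 of 44 PBS cells. A single cell held 13 of the 24 Tnfrsf9 UMIs in MPSS and another 16 of the 45 in PBS. Tnfrsf18 had UMIs in 20 and 17 of these Cd3 cells, so its share of them was not lower in MPSS before thinning. After thinning, Tnfrsf18 was found in 15.6% (7.76 to 26.9) of all MPSS members and 22.4% (11.8 to 36.6) of PBS members. These intervals overlap, so the libraries could not be told apart by this share. A single PBS cell held 16 of the 60 Tnfrsf18 UMIs. Leaving out the cells with Cd3g alone, 3 of 7 were lower with a median of -0.87, and Tnfrsf18 was 1.82-fold lower. With the members holding at least 5 UMIs of another type also left out, 3 of 7 were lower and 1, Ctla4, was higher at 136 and 67.6 CPM, with a median of -0.74.

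The T cell receptor complex and its proximal signalling had a median of -0.14, with 1 of 19 members, Trat1, at least 2-fold lower and none higher. Lck, the kinase that starts receptor signalling, was at 439 and 483 CPM, 1.10-fold apart (0.838 to 1.44), and Cd2, an adhesion receptor, at 547 and 534. Cytotoxic genes had a median of -0.29, with 2 of 9 lower, Gzma and Prf1. Nothing is read from this count, since Prf1 was used to choose the cells and 48 of the 66 Gzma UMIs in PBS came from 1 cell. Among Cd3 cells, without those with Cd3g alone, 0 of 7 cytotoxic genes were at least 2-fold apart, where 5.9% of 1508 measured genes were higher and 3.18% lower. In these Cd3 cells Gzmk was at 163 and 174 CPM, Nkg7 at 857 and 675, and Gzmm at 386 and 632, 1.64-fold lower (1.22 to 2.21). NK receptors and adaptors had 2 of 7 higher, Tyrobp and Fcer1g, and a median of 0.15. The cells with Cd3g alone held 226 of the 433 Tyrobp UMIs in MPSS. In Cd3 cells without them, 1 of 5 was higher, 1 lower and the median was -0.40.

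Genes known to respond to glucocorticoids lay on both sides of even, with 5 of 12 measured members above a log2 ratio of 0. Of the 12, 0 were at least 2-fold apart in either direction, and the median was -0.19. Without the Cd3g-alone cells and the members with at least 5 UMIs of another type, the median over 11 measured members was -0.40. Over all 1263 genes it was 0.03 there. Among Cd3 cells without those with Cd3g alone, the list median was 0.01 over 11. In all CD8 cells, the MPSS cell of 28670 UMIs included, 2 of 7 measured members were at least 2-fold lower and 0 higher. Over all 824 genes of the CD8 cells, 4.49% were lower and 11.7% higher. Tsc22d3 (GILZ), a classic glucocorticoid target, was at 223 and 316 CPM, 1.41-fold lower (0.988 to 2.03). Dusp1, a phosphatase that limits MAP kinase signalling, was at 389 and 241, 1.61-fold higher (1.15 to 2.29), and Zfp36l2, an RNA-binding regulator, at 320 and 589. In CD8 cells without the MPSS cell of 28670 UMIs, Dusp1 was at 197 and 253 CPM, 1.28-fold lower (0.655 to 2.53). Zfp36l2 was at 373 and 712 CPM in these cells, 1.91-fold lower (1.24 to 2.99). Fkbp5 had 10 UMIs in MPSS and 14 in PBS, too few to be measured. The receptor gene Nr3c1 was at 104 and 153 CPM, 1.47-fold lower (0.864 to 2.51).

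Activation and immediate early genes had a median of -0.12, with 0 of 20 at least 2-fold apart. Cd69, an early activation marker, was at 353 and 390 CPM and Junb at 2572 and 3313. Naive, memory and egress genes had 0 of 8 apart and a median of -0.43, and tissue residency genes 0 of 6 and -0.32. Ccl5 was at 4731 and 5972 CPM, 1.26-fold lower (1.17 to 1.36). Interferon response genes had a median of 0.04 with 1 of 11 higher, Oasl2, at 104 and 46.4 CPM. Among Cd3 cells without those with Cd3g alone, 0 of 10 were at least 2-fold apart and the median was -0.08.

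Lineage transcription factors had a median of -0.48 with 1 of 6 lower, Gata3, the factor of type 2 helper cells, at 64.8 and 144 CPM. Once the Cd3g-alone cells were left out, Gata3 had a log2 ratio of -0.92 and 0 of 6 were lower. Cytokine receptors and JAK-STAT genes had a median of -0.37 with Il2ra as the only 1 of 9 at least 2-fold lower. Glycolysis genes had a median of 0.02 with 1 of 8 higher, Hk2, at 82.7 and 32.5 CPM on 30 UMIs. Without the Cd3g-alone cells, 0 of 7 measured glycolysis genes were at least 2-fold apart. Cell cycle genes had a median of -0.63 with 1 of 5 lower, Tubb5. That median was 0.25 without members carrying markers of another type, so its sign rested on those cells. The PBS members left out there include Cd3 cells of 9832 and 15312 UMIs that held Mki67, a cell cycle gene. They held 3 and 6 Mki67 UMIs, 24 and 31 UMIs of the chosen genes and 5 oligodendrocyte marker UMIs each. The larger one also held 6 UMIs of Schwann cell markers. The cause of the change in sign was not tested. Inhibitory receptors (Ctla4, Lag3 and Cd96 measured), cytokines, apoptosis genes and type 2 or type 17 lymphoid genes had fewer than 5 measured members.

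MHC class II genes were higher in MPSS in 3 of 4 measured members. Cd74 was at 896 and 218 CPM, 4.11-fold higher (3.00 to 5.74), RT1-Da at 381 and 51.0, and RT1-Ba at 162 and 18.6. The cells with Cd3g alone held 229 of the 249 Cd74 UMIs in MPSS and 97 of the 106 RT1-Da UMIs. Without those cells the log2 ratios were -1.37, -0.43 and -1.14, so all 3 genes were then lower in MPSS, the RT1 genes on few UMIs.

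**Figure D5:**
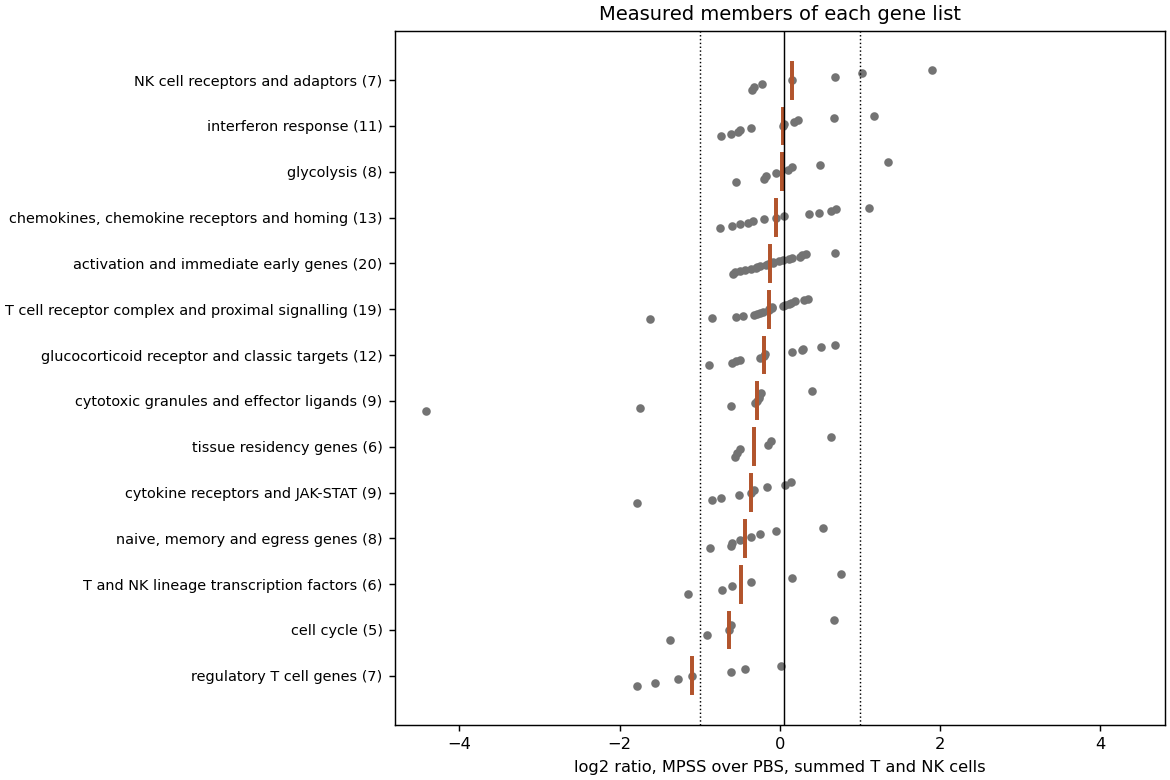
Each grey point is a measured member of a gene list, placed by its log2 ratio of MPSS over PBS in the summed T and NK cells, with the number of members after the list's name. Coloured bars are list medians, the solid line is the median of all genes (0.05) and dotted lines mark 2-fold. Regulatory T cell genes sit lowest with a median of -1.10.

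The CD8 cells allow a comparison within 1 subset, but it rested on a single cell. Of 824 genes with at least 30 UMIs, 96 (11.7%) were at least 2-fold higher in MPSS and 37 (4.49%) lower. The cell of 28670 UMIs with oligodendrocyte markers held 23.9% of the UMIs of the MPSS CD8 cells. Without it, 16 of 663 genes (2.41%) were higher and 17 (2.56%) lower, of which 8 and 14 were among the 96 and 37. The genes named here were chosen after their values were seen. In the 24 and 22 cells left, Dnaja1 was at 307 and 838 CPM, 2.73-fold lower (1.74 to 4.38). Isg15, an interferon-induced protein, was at 581 and 172 CPM, 3.38-fold higher (1.88 to 6.45), with UMIs in 11 and 3 cells. Lag3, an inhibitory receptor, was at 296 and 115 CPM, 2.58-fold higher (1.21 to 5.97), and Cd69 at 549 and 264. Rgs2, a regulator of G protein signalling, was at 98.7 and 344 CPM, 3.49-fold lower (1.61 to 8.35). Irf1, a transcription factor of the interferon gamma response, and Gadd45b, a stress response gene, were each at 132 and 321 CPM. Il2rb, a chain of the IL-2 and IL-15 receptors, was at 121 and 287. Among effector genes, Ccl5 was at 6857 and 7025 CPM and Gzmk at 362 and 367. Gzmm was at 801 and 1251, 1.56-fold lower (1.15 to 2.13), and the chemokine gene Ccl4 at 2490 and 1584, 1.57-fold higher (1.27 to 1.96). Nkg7, a gene of the gate, was at 1832 and 1389.

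The genes that set the members apart from all other kept cells, given as a description since the members were chosen by expression, were those of lymphocytes in both libraries. Ccl5 was at 4731 and 5972 CPM in the members and at 1.37 and 2.24 CPM in all other kept cells. Ctsw was at 773 and 923 CPM against 1.16 and 0.958. Ptprcap, a partner of the CD45 phosphatase, was at 1058 and 965 CPM and had UMIs in 63 of 64 and 48 of 51 cells. Lat, the scaffold of T cell receptor signalling, was at 432 and 413 CPM against 0.643 and 1.60. Gimap4 and Gimap7, GTPases of lymphocyte survival, were at 252 and 459 CPM and at 270 and 380. The neutrophil peptide genes RatNP-3b, Defa5 and Np4, with 1110, 723 and 480 UMIs in PBS and none in MPSS, came from 1 to 2 PBS cells.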

How the data were processed

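Single-cell count matrices of the MPSS and PBS libraries were used. Values are deposited UMI counts per gene and cell, made with Cell Ranger (3.0.2 per the submitters' processing notes, 3.1.0 per the file headers). The genome build is not given in the sources used here. The 25199 gene rows gave 25054 names, and rows of the same name were summed. Barcodes were kept from 500 UMIs upward where the mitochondrial share did not pass 20%, which left 2106 of 2339 and 1394 of 1513 barcodes. They held 23593012 and 15869147 UMIs.

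Counts of the chosen cells were summed per library and given as CPM. Exact Poisson, binomial (ratios) and Clopper-Pearson (shares) intervals were computed at 95% with scipy 1.17.1 in Python 3.11.15 (numpy 2.4.6, pandas 2.3.3). With 1 library per group no test was made. A gene was measured with at least 30 UMIs over both sums. A gene at 0 was bounded by 3 counts. On simulated counts, intervals held the true ratio for 95.5% of 1676 genes without a change, 96% of 100 genes at 2-fold and 98% of 100 at 4-fold. The simulated counts were Poisson draws, the error model of the intervals, without spread between cells or animals. They check the calculation only and do not give the coverage in these data.

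The named genes were the 10 with the largest difference each way, ranked on log2(CPM + 50). They needed at least 100 CPM in the higher library, at least 5 cells with a UMI there no cell holding over 30% of its UMIs, and at least 0.5 of the CPM of the other kept cells. Mitochondrial, ribosomal and haemoglobin genes, genes without a symbol, gate and split genes and markers of other types were left out. Also named were 2 to 4 members of a list with the largest ratios, the gate and split genes and the 10 genes highest against other kept cells. Shares of cells were also taken after thinning each cell to 1000 UMIs. Doublets were sought with scrublet (scanpy 1.11.5), and TMM scaling used edgeR 4.0.16 in R 4.3.3. Alternatives changed the cell filters, the gate, the gene minimum, the scaling and the cells included. The members and gene lists were chosen with earlier results of these data known. The other 4 libraries of the series were not used here. Some results are not reported here.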

Additional observations from a re-analysis of the deposited data

How the results depend on the processing

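No paired analysis was possible because each group is 1 library, and leaving out a replicate was not possible for the same reason. Of the values that answer a comparison, 217 kept within the limits set for them and 17 moved. Applying the gate to cells thinned to 1000 UMIs gave shares of 2.32% in MPSS and 2.59% in PBS. Requiring 2 UMIs to decide between Cd4 and Cd8a gave CD4 shares of 1.56% and 0%. With a minimum of 10 UMIs, 599 genes were at least 2-fold higher and 304 lower, and with 100 UMIs 29 and 17. Without the members holding at least 5 UMIs of another type, 90 and 37 were, and without the Cd3g-alone cells as well, 35 and 32, so the higher share of calls went from 71.9% to 52.2%. In CD8 cells without 1 MPSS cell, 16 and 17 were, of which 8 and 14 were among the 96 and 37. The median of the cell cycle list was -1.17 with 10 UMIs, 0.25 without members of another type and -0.98 without the Cd3g-alone cells. For log2 ratios and shares of cells of single genes, 242 values kept within their limits, 32 moved and 8 turned sign. Gzma turned to 1.18 (log2) in Cd3 cells only, on 3 UMIs in MPSS and 1 in PBS, too few to read. Without the Cd3g-alone cells, Cd74 turned to -1.37, RT1-Da to -0.43 and RT1-Ba to -1.14. With members of another type also left out, they were -1.90, -2.19 and -0.90, and Irf8 was -0.73. The settings that left out the Cd3g-alone cells or the CD8 cell were chosen after seeing the data. The cause of the other changes was not tested. At a median of about 3617 and 3746 UMIs per cell, genes such as Cd4, Foxp3, Ifng and Il17a were too sparse to compare.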

Other observations

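Chaperone genes were listed after Dnaja1 and Chordc1 had been seen, so their counts are a description only. Of 33 measured heat shock proteins, Hsp40 proteins, chaperonin subunits and co-chaperones, 3 were at least 2-fold lower in MPSS (Dnaja1, Chordc1 and Dnajc1) and 1 at least 2-fold higher (Hspa2). Over all 1876 measured genes, 2.99% were lower and 7.62% higher, with a median log2 ratio of 0.05. Of the 3 lower genes, Dnaja1 and Chordc1 had prompted the list, so no decrease of chaperones as a group is read from these counts. Hspa2 had 59 UMIs in 5 MPSS cells and 5 UMIs in 5 PBS cells. In all, 22 of the 33 lay below a log2 ratio of 0, with a median of -0.28 in T and NK cells and 0.07 in all other kept cells. Hspa8, the constitutive Hsp70, was at 2126 CPM in MPSS and 2997 in PBS, 1.41-fold lower (1.26 to 1.58), and Hspd1, the mitochondrial chaperonin, at 216 and 380. Hsp90ab1, the constitutive Hsp90, was at 4752 and 4473 CPM.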
